A study of Mus musculus with 8 samples.

Results

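The transcripts of red blood cells were followed on every array of a study of sorted embryonic mouse heart cells, through 9 genes: the embryonic globins Hba-x, Hbb-y and Hbb-bh1, the adult globins Hba-a1 and Hbb-b1, and the erythroid genes Alas2, Slc4a1, Klf1 and Hemgn. They were chosen by gene name, and all 15 non-control probes that carried one of these names were taken, of 41174 non-control probes and 27827 gene names on the array. The tested cells were GFP-high cells, which the labels call conduction system cells, and they were set against GFP-low cells, which the labels call chamber myocardium. Both came from hearts of minKGFP transgenic embryos at stage E10.5, in which green fluorescent protein is driven by a minK (Kcne1) construct, so every sample of both groups carried the transgene and the fluorescence gate was the only difference between the groups that the labels give. Hearts were digested with enzymes and the cells sorted straight into a lysis reagent, with no step against blood cells given in the labels. Each group held 4 samples, called biological replicates, and the labels do not say whether they came from separate litters or pools, so the p-values measure the spread between these samples. Each array was hybridised with 2 ug of dye-labelled product, which had been amplified from 5 ng of RNA.

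Haemoglobin is built from alpha-type and beta-type chains. In the mouse embryo the first red cells come from the yolk sac and make the embryonic chains, zeta (Hba-x) with epsilon-y (Hbb-y) and beta-h1 (Hbb-bh1), alongside adult alpha chains (Hba-a1), whereas the adult beta chains (Hbb-b1) become abundant later, in red cells of the fetal liver. These primitive red cells circulate with their nuclei through the heart at this stage, and globin transcripts are abundant in them.

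The probes of the globin genes, except Hbb-b1 A_52_P213909, are shown because closely related chains can share probe sequence. Each is 60 bases long, read 5′ to 3′ from the scanner files, with coordinates on mouse build mm9. Capitals mark stretches that the pair of Hbb-bh1 probes have in common (40 bases) and that 2 of the Hbb-b1 probes have in common (29 bases), and, in the Hba-a1 and Hba-a2 probes, the 3 bases that differ within their shared stretch.
Hba-x A_51_P204053, chr11:32177668-32177727, + strand: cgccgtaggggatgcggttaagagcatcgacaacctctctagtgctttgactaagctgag
Hbb-y A_51_P350058, chr7:111001412-111001471, - strand: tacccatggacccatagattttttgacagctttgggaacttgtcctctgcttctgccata
Hbb-bh1 A_51_P179672, chr7:110990307-110990366, - strand: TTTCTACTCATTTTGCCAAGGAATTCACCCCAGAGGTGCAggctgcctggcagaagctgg
Hbb-bh1 A_52_P305876, chr7:110990327-110990386, - strand: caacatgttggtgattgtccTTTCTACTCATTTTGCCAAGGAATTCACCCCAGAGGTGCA
Hba-a1 A_52_P278538, chr11:32183775-32183956, + strand: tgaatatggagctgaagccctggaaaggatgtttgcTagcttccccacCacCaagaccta
Hba-a2 A_52_P208681, chr11:32196744-32196803, + strand: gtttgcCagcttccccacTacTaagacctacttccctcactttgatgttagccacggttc
Hbb-b1 A_51_P374476, chr7:110962000-110962059, - strand: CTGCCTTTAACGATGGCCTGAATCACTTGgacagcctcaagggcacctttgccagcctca
Hbb-b1 A_52_P260346, chr7:110962031-110962090, - strand: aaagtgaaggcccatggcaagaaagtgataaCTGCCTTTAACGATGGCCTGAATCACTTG
Hbb-b1 A_51_P374468, chr7:110962317-110962376, - strand: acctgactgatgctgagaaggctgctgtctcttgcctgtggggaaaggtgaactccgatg
The probes of Hba-a1 and of Hba-a2, the second adult alpha gene, overlap by 30 bases, of which 27 are identical. They differ by T37C, C49T and C52T, with positions counted from 1 at the 5′ end of the Hba-a1 probe and the Hba-a1 base given first. The Hba-a1 probe also lists an Hba-a2 accession in the files, and its coordinates span 182 bases of the genome. Of the Hbb-b1 probes, A_51_P374468 and A_52_P213909 also list an accession of Hbb-b2, the minor adult beta gene. Signals of these close copies cannot be told apart with certainty, and the accession that the files call Hbb-b1 has the current name Hbb-bt in the RefSeq gene table.

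The promoter stretches of 4 of these genes are shown as background. Each gives the 150 bases before the transcription start on its own strand, from RefSeq, build GRCm38.p6. Capitals mark matches, on either strand, to 4 short motifs: the letters CACCC, known as a motif of Krüppel-like factors; the letters CCAAT, of CCAAT-binding factors; the letters GATA, of GATA factors; and the letters TATAA, of the TATA-binding protein. In Hbb-bt a CCAAT match on each strand lies next to the other.
Hba-x, chr11:32276450-32276599, + strand: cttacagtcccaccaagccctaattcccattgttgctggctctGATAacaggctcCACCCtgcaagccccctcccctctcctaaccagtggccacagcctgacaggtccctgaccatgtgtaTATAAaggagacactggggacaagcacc
Hbb-y, chr7:103853208-103853357, - strand: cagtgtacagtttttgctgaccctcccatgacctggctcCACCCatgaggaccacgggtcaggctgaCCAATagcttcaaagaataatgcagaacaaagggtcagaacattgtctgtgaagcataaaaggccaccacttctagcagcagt
Hba-a1, chr11:32283522-32283671, + strand: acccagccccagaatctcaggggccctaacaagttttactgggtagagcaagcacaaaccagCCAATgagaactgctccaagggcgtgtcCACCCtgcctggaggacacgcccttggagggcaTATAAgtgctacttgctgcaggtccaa
Hbb-bt, chr7:103813924-103814073, - strand: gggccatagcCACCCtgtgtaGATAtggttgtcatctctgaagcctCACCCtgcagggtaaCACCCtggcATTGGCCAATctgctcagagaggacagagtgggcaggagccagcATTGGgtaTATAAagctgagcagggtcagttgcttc
CACCC occurred in all 4 of these windows and in those of Alas2 and Klf1, but not in that of Hemgn, and in 37.4% of the 32851 promoter windows of the same length in the table. In the adult beta gene Hbb-bt it occurred 3 times, beginning 140, 104 and 89 bases before the start, and in Hbb-y once, 111 bases before it. CCAAT was found in the windows of Hbb-y, Hba-a1, Hbb-bt and Klf1 and in 24.5% of all windows; the CCAAT of Hba-a1 began 88 bases before the start. GATA was found in those of Hba-x and Hbb-bt, in those of Alas2, Klf1 and Hemgn, and in 35.7% of all windows. TATAA began 28, 27 and 28 bases before the start of Hba-x, Hba-a1 and Hbb-bt, and occurred in the Hemgn window and in 14.2% of all windows. These are matches of letters in a window, and occupancy by a factor was not measured. A link between these motifs and the levels of the globin probes over the arrays was not tested.

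Some facts of the whole series bear on the values. Of 43379 non-control spots, 15735 to 21150 exceeded background by the scanner software's own flag in GFP-high samples, and 17548 to 22003 did in GFP-low samples. All 10 cardiomyocyte markers of a list (among them Tnnt2, Actc1, Myl7 and Nkx2-5) were well above background on all 8 arrays. One probe of Kcne1, the gene of the reporter construct, averaged 2.24 ± 0.38 in GFP-high samples and -0.60 ± 0.28 in GFP-low samples (SD, n = 4 each, limma adjusted p = 0.0311); the other averaged 1.67 ± 0.57 in GFP-high samples and 0.37 ± 0.39 in GFP-low samples (limma adjusted p = 0.225). All levels are log2 of the processed signal minus the 75th percentile of that array. A probe's level is therefore compared between arrays, and not with the level of another probe.

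The 3 embryonic globins were well above background on all 8 arrays, and their signals differed more within each group than between the groups. Hbb-y, the embryonic epsilon-type beta chain, had levels of 3.68, 4.22, 5.98 and 3.08 in the GFP-high samples, against 5.89, 3.76, 5.67 and 2.21 in the GFP-low samples. As raw intensities these were 1918, 2570, 11629 and 1255 in GFP-high samples, against 11590, 1938, 11018 and 726 in GFP-low samples. GFP-high 3, GFP-low 1 and GFP-low 3 stood above the other 5 arrays, GFP-low 4 was lowest, and the groups overlapped. GFP-high averaged 4.24 ± 1.25 and GFP-low 4.38 ± 1.73 (SD, n = 4 each), a difference of -0.14 ± 0.92 (SE, limma adjusted p = 0.959). Hba-x, the embryonic zeta chain, had 2.64, 2.96, 5.42 and 2.07 in GFP-high samples, against 5.03, 2.50, 4.50 and 1.17 in GFP-low samples. The same 3 arrays were highest, the groups overlapped, and the highest array exceeded the lowest 18.9-fold. Its difference was -0.03 ± 0.99 (SE, limma adjusted p = 0.994). Fewer red cells and less globin RNA per red cell cannot be told apart in these bulk samples.

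Hbb-bh1, the embryonic beta-h1 chain, was read by a pair of overlapping probes, which are not independent measurements. A_51_P179672 gave 2.04, 2.90, 5.39 and 2.86 in GFP-high samples, against 5.29, 3.01, 4.12 and 1.67 in GFP-low samples. The second probe gave 1.79, 2.62, 5.32 and 2.67 in GFP-high samples, against 5.17, 2.80, 4.46 and 1.40 in GFP-low samples. Both put GFP-high 3, GFP-low 1 and GFP-low 3 on top, and their r over the 8 arrays was 0.993. Their differences were -0.23 ± 0.91 and -0.36 ± 0.98 (SE; limma adjusted p = 0.925 and 0.885).

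**Figure D1:**
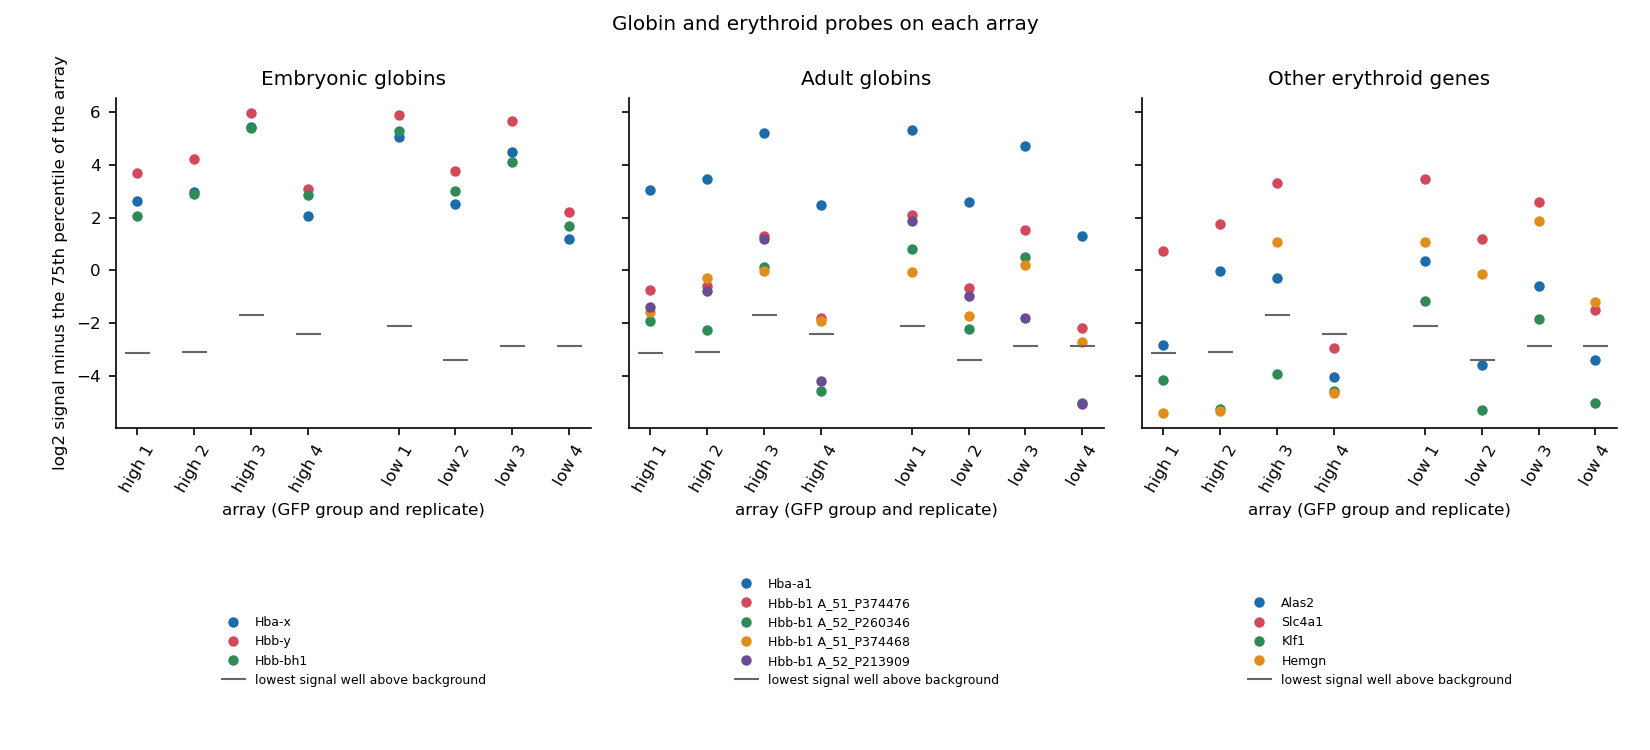
Level of each probe (log2 signal minus the array's 75th percentile, vertical axis) on each array, GFP-high samples left of GFP-low samples; the short bars mark the lowest signal well above background on that array. Points are single arrays. GFP-high 3, GFP-low 1 and GFP-low 3 carry the highest embryonic globin values, while Hemgn is high in 1 GFP-high sample and Klf1 lies below the bars outside GFP-low 1 and GFP-low 3.

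The adult alpha globin followed the embryonic chains. Hba-a1 had 3.04, 3.46, 5.20 and 2.48 in GFP-high samples, against 5.30, 2.58, 4.73 and 1.31 in GFP-low samples, with a difference of 0.07 ± 0.95 (SE, limma adjusted p = 0.980). GFP-high 3, GFP-low 1 and GFP-low 3 were again highest, and the groups overlapped. Hba-a2, which is not among the 9 genes, had 2.63, 3.03, 4.85 and 1.84 in GFP-high samples, against 4.76, 2.17, 4.11 and 0.33 in GFP-low samples.

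The adult beta globin Hbb-b1 was read by 4 probes, and 2 of them were well above background on all 8 arrays. A_51_P374476 had -0.75, -0.60, 1.30 and -1.81 in GFP-high samples, against 2.09, -0.66, 1.52 and -2.19 in GFP-low samples. The 3 arrays richest in embryonic globin were the 3 highest here too, and the groups overlapped; the difference was -0.65 ± 1.01 (SE, limma adjusted p = 0.785). A_51_P374468 had the smallest range of the 12 tested probes, 2.94, with -1.57, -0.31, -0.04 and -1.94 in GFP-high samples, against -0.08, -1.75, 0.20 and -2.74 in GFP-low samples. A_52_P213909, which was well above background on 3 arrays of each group, had -1.41, -0.78, 1.18 and -4.18 in GFP-high samples, against 1.85, -0.97, -1.81 and -5.06 in GFP-low samples. It read low in GFP-low 3, where the other 3 Hbb-b1 probes read high. A_52_P260346, above background on 3 arrays of each group, had -1.93, -2.28, 0.11 and -4.57 in GFP-high samples, against 0.80, -2.25, 0.50 and -5.03 in GFP-low samples. The Hbb-b1 differences ran from -0.68 to 0.20, all smaller than their SE of 0.73 to 1.53.

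**Figure D2:**
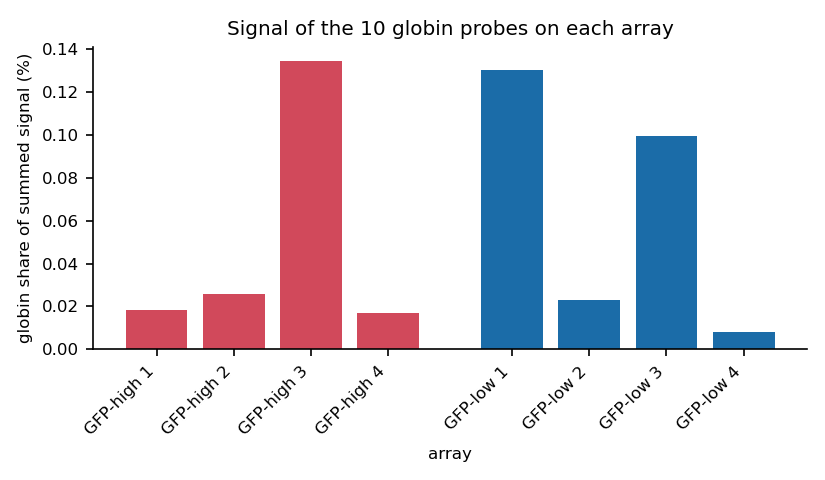
Share of the summed signal of an array that came from 10 globin probes (percent, vertical axis), GFP-high arrays left of GFP-low arrays; each bar is 1 array. GFP-high 3 (0.134%), GFP-low 1 (0.130%) and GFP-low 3 (0.0994%) stand above the other 5.

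The 10 globin probes (the 9 of the named genes and that of Hba-a2) together made up 0.0185%, 0.0257%, 0.134% and 0.0168% of the summed signal in GFP-high samples, against 0.130%, 0.0228%, 0.0994% and 0.00806% in GFP-low samples. The means were 0.0488% ± 0.0571 in GFP-high and 0.0652% ± 0.0591 in GFP-low (SD, n = 4 each), and the highest and lowest arrays differed 16.7-fold. A share of summed probe signal depends on probe brightness and is not a share of RNA. The 3 globin-rich arrays also had the highest 75th percentile signals, 184 in GFP-high 3, 196 in GFP-low 1 and 217 in GFP-low 3, against 138 to 156 on the other 5. GFP-high 3 and GFP-low 1 had the fewest spots well above background, 15735 and 17548. The part of these measures in the globin values was not tested.

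Of the other erythroid genes, Slc4a1 passed the background flag on 7 of 8 arrays, Alas2 and 1 Hemgn probe on 5 each, and Klf1 on 2. Slc4a1 encodes band 3, the anion exchanger of the red cell membrane. It had 0.74, 1.77, 3.31 and -2.96 in GFP-high samples, against 3.44, 1.17, 2.59 and -1.51 in GFP-low samples, and passed the background flag in 3 GFP-high and 4 GFP-low samples. GFP-high 3, GFP-low 1 and GFP-low 3 were highest and the 2 arrays of replicate number 4 lowest, and the groups overlapped; the difference was -0.71 ± 1.46 (SE, limma adjusted p = 0.840).

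Alas2 encodes the erythroid form of the first enzyme of haem synthesis. It passed the background flag in 3 GFP-high and 2 GFP-low samples, with -2.83, -0.03, -0.30 and -4.04 in GFP-high samples, against 0.35, -3.61, -0.61 and -3.40 in GFP-low samples. The groups overlapped and the difference was 0.02 ± 1.19 (SE, limma adjusted p = 0.996). Klf1 encodes the erythroid Krüppel-like transcription factor that acts on globin genes. It was well above background on no GFP-high array and on 2 GFP-low arrays, with -4.17, -5.26, -3.94 and -4.57 in GFP-high samples, against -1.15, -5.28, -1.84 and -5.03 in GFP-low samples. The 2 arrays that read it were GFP-low 1 and GFP-low 3, the globin-rich arrays of that group. It did not reach 4 arrays and was not tested.

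Hemgn encodes hemogen, a nuclear protein of haematopoietic cells. Its probe A_51_P216049 passed the background flag in 1 GFP-high and 4 GFP-low samples, with -5.40, -5.34, 1.06 and -4.64 in GFP-high samples, against 1.07, -0.14, 1.88 and -1.21 in GFP-low samples. GFP-high 3 stood apart from the other 3 GFP-high samples, and the groups overlapped. The difference was -3.98 ± 1.44 (SE), with an unadjusted p of 0.0230 and a limma adjusted p of 0.291, so it did not pass the test. Because 3 of the 4 GFP-high values were not well above background, the size of this difference rests on unmeasured levels. With all arrays raised to a common floor it was -1.41 ± 0.89 (SE), with an unadjusted p of 0.159 and a limma adjusted p of 0.492. The probe passed the filter mainly through the GFP-low arrays. Between samples of the same number the difference was -6.46, -5.21, -0.82 and -3.43. Of the other Hemgn probes, A_52_P311276 was well above background on 1 array, a GFP-low one, and A_52_P427579 on none, so no second probe measured the difference.

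Of the 12 tested probes, which represent 8 of the 9 genes, none passed an adjusted p of 0.05 in either direction in limma, 1 passed at an unadjusted p under 0.05 (Hemgn, and with a common floor none) and none had groups that did not overlap. Among all 18506 tested probes 7 passed the adjusted threshold, which is 0.0378%, while 2571 (13.9%) passed the unadjusted one and 1595 (8.62%) had arrays that did not overlap. A count of 0 is close to that background and is not a result about these genes. The differences were positive for 4 probes and negative for 8, with a median of -0.18 against 0.13 for all tested probes. On simulated arrays of this size, 1.79% of probes with a log2 change of 1 were recovered, and 60% of probes with a log2 change of 3. The changed probes were drawn at random from all tested probes, with independent noise, so these rates do not describe the 12 probes. The median SE of the 12 probes was 1.004, against 0.430 over all tested probes.

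**Figure D3:**
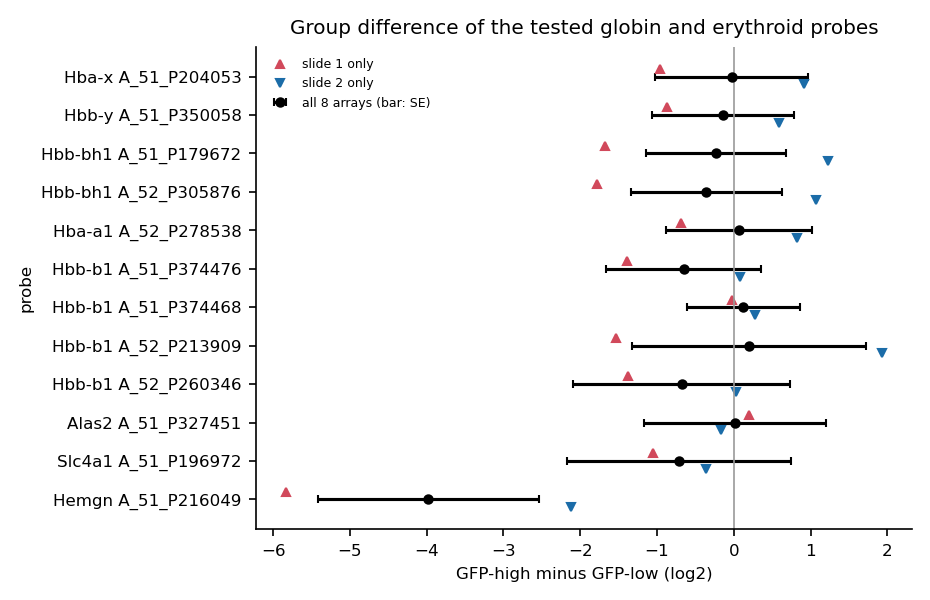
Difference of GFP-high minus GFP-low (log2, horizontal axis) for the 12 tested probes, with the SE of the fit as bars and the difference within each slide as triangles. All 9 globin probes lie left of 0 in slide 1 and right of 0 in slide 2, and these probes are not independent of each other.

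The globin differences had opposite signs on the 2 slides, and the difference between slides was not tested. Replicates 1 and 2 of each group were on slide 1, and replicates 3 and 4 on slide 2. Within slide 1 the differences of the 9 globin probes were all negative, from -1.78 to -0.03, and within slide 2 all positive, from 0.03 to 1.93. These probes moved together over the arrays, so their like signs are not independent. Hbb-y differed by -0.87 in slide 1 and 0.59 in slide 2. Between samples of the same number Hbb-y differed by -2.21, 0.47, 0.32 and 0.87, so its negative sign in slide 1 came from number 1. Each slide held a globin-rich array, GFP-low 1 in slide 1 and both GFP-high 3 and GFP-low 3 in slide 2.

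The spread over arrays was large for these probes. Their range over the 8 arrays ran from 2.94 to 7.28 with a median of 4.27, against 1.98 for all tested probes, and the SD within groups had a median of 1.66, against 0.63. By SD over the 8 arrays the member probes lay at a median percentile of 90.0 among the tested probes, with a lowest percentile of 76.3. GFP-high 3, GFP-low 1 and GFP-low 3 were the 3 highest arrays for 10 of the 12 probes, and GFP-low 4 was the lowest for 9 and GFP-high 4 for 2.

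**Figure D4:**
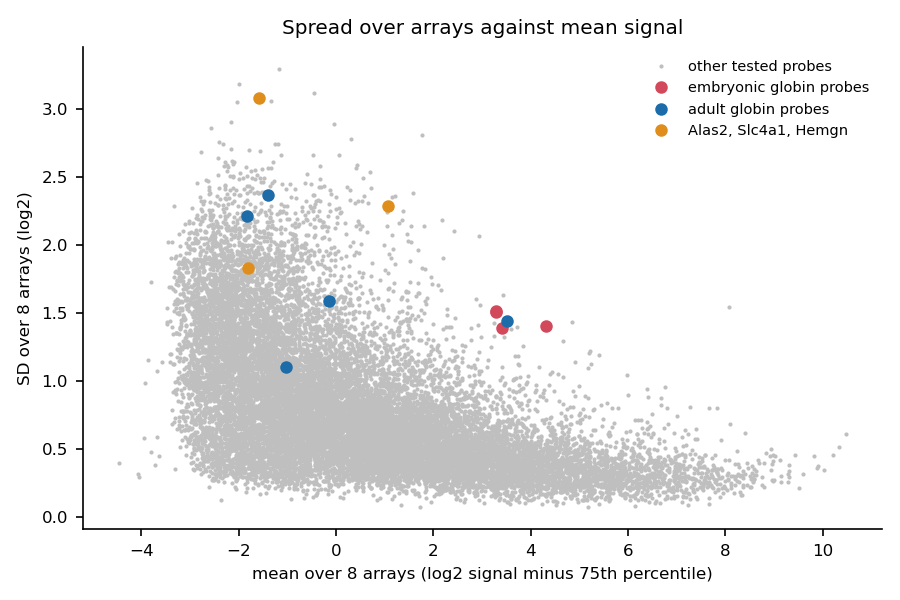
SD over the 8 arrays (log2, vertical axis) against mean level (log2 signal minus the array's 75th percentile, horizontal axis) for the 18506 tested probes; coloured points are the 12 tested probes of the named genes. The embryonic globins and Hba-a1 sit above the bulk of probes of like mean signal.

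The globin probes moved together from array to array. Over the 8 arrays, which share the amplification and the scaling, the 36 pairs of globin probes had r of 0.757 to 0.993 (median 0.928). Against Hbb-y, r was 0.991 for Hba-x (rho 0.976), 0.990 for Hba-a1 (rho 0.952) and 0.893 for Slc4a1 (rho 0.952). Without GFP-high 3 and GFP-low 1, the 2 arrays farthest from the median of Hbb-y, r over the other 6 was 0.996 for Hba-x, 0.983 for Hba-a1 and 0.820 for Slc4a1. For Hemgn it was 0.604 over 8 arrays and 0.377 over 6. These are descriptions of 8 arrays, with no test.

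The embryonic and adult globins could be set against each other only as differences within an array, which show unequal change and not relative amount. Hba-a1 minus Hba-x stayed within 0.72 over the 8 arrays, while each probe alone spanned 3.99 and 4.24. Hbb-b1 (A_51_P374476) minus Hbb-y averaged -4.71 ± 0.21 in GFP-high samples and -4.19 ± 0.29 in GFP-low samples (SD, n = 4 each) and spanned 1.10. The GFP-low 1 value, -3.80, was highest and the GFP-high 4 value, -4.90, lowest. The other Hbb-b1 probes spanned 1.50 to 3.45 against Hbb-y, so the order of samples in this measure depended on the probe.

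**Figure D5:**
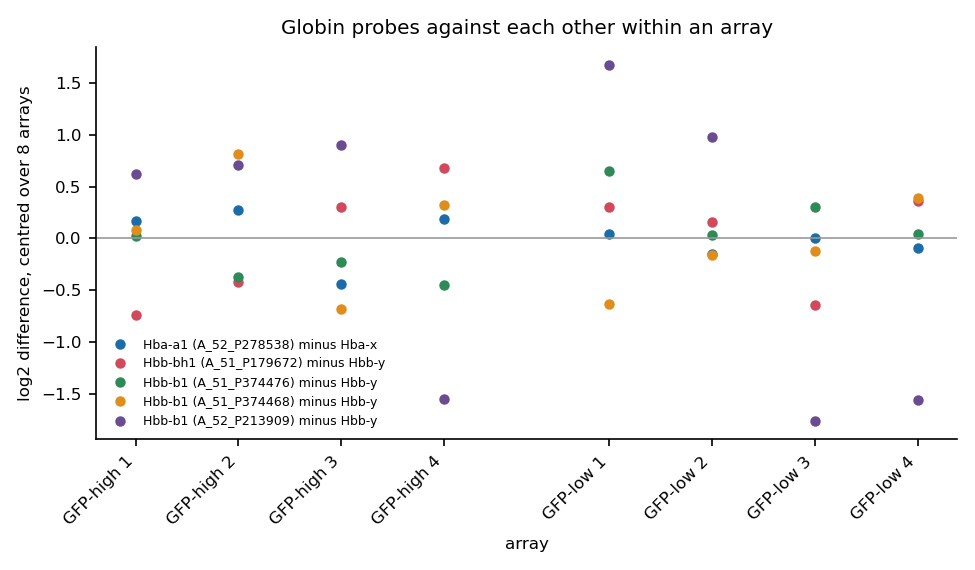
Difference between globin probes on the same array (log2, centred on its mean over the 8 arrays, vertical axis), GFP-high arrays left of GFP-low arrays. Hba-a1 minus Hba-x stays near 0, and Hbb-b1 probe A_52_P213909 minus Hbb-y drops on GFP-high 4, GFP-low 3 and GFP-low 4.

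The rest of the erythroid programme was described with a list of 71 names, of which 61 were on the array and 45 were tested. None passed an adjusted p of 0.05 in limma (lowest 0.197), 6 (13.3%) passed at an unadjusted p under 0.05, against 13.9% of all tested probes. The difference was positive for 31 (68.9%), against 58.7% of all tested probes, and its median was 0.28, against 0.13. The largest differences were those of the regulators Sox6 (2.39 ± 1.65), Lyl1 (1.61 ± 1.15) and Lmo2 (1.57 ± 0.47), and the lowest those of the Rhesus surface gene Rhd (-2.65 ± 0.89), the haem enzyme Uros (-1.25 ± 0.44) and the transferrin receptor Tfrc (-0.999 ± 0.41; SE throughout). None of the 6 passed the adjusted test. Sox6 passed the background flag in 3 GFP-high and 1 GFP-low samples, Lyl1 in 3 and 2, and Rhd in 2 and 4. The sizes of the Sox6, Lyl1 and Rhd differences therefore rest partly on unmeasured levels. Sox6 passed the filter mainly through the GFP-high arrays and Rhd mainly through the GFP-low arrays. Lmo2 and Uros passed the flag on 7 arrays each and Tfrc on 8. The median r of the list with the mean embryonic globin profile over the 8 arrays was 0.02, against -0.07 for all tested probes, of which the 5th and 95th percentiles were -0.77 and 0.67. Gata1, the master regulator of red cell genes, passed the background flag in 1 GFP-high and 3 GFP-low samples, too few to read its course over the arrays. Chosen after their values were seen, Hba-a2 (0.97), the mitochondrial iron carrier Slc25a37 (0.76), the alpha-chain chaperone Eraf (0.75) and Car2 (0.72) were among those with the highest r. Eraf, like Gata1, passed the background flag on only 4 arrays (2 GFP-high and 2 GFP-low), so its r rests partly on unmeasured levels. The 16 names not tested were well above background on at most 3 arrays, and Spna1, Rhag, Ermap, Car1 and Hbq1 were among those above it on none.

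Outside these lists, the 10 gene names whose brightest probe was most alike to the mean embryonic globin profile, of 12867 considered, had r between 0.924 and 0.971 over the 8 arrays. They were 4632419I22Rik, Rnase4, Gpr177 (now Wls), Pkp2, Cd9, Slc1a1, Rheb, Ino80c, Fbln2 and Tmtc4. Their own ranges ran from 0.47 to 5.41, and 3 exceeded the range of the profile, 3.91. Those 3, Rnase4, Slc1a1 and Fbln2, were well above background on only 4 of the 8 arrays each, so their ranges rest partly on unmeasured levels. The others were well above background on all 8 arrays, with ranges of 0.47 to 2.02. Of all 18506 tested probes, 40 had r above 0.9 with that profile and 84 had r below -0.9.

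Other cell types also differed between arrays. The cardiomyocyte list, with 10 of 10 markers tested, averaged 7.33, 7.28, 6.76 and 6.98 in GFP-high samples, against 6.52, 7.05, 6.38 and 7.04 in GFP-low samples, and was lowest on the 3 globin-rich arrays. Its summed signal was 2822 to 4376 times the 75th percentile in GFP-high samples and 1926 to 3475 times in GFP-low samples. The same 3 arrays had the highest 75th percentile signals, and both measures are relative to that percentile. The part of this scaling in the order of the cardiomyocyte values was not tested. Of the 8 endothelial and endocardial markers only Cdh5, Kdr and Nfatc1 were tested, with means of -0.93, -1.61, -0.01 and -2.92 in GFP-high samples, against -0.30, -2.06, -0.30 and -2.11 in GFP-low samples. These means were highest on the 3 globin-rich arrays. The r with the globin profile was 0.87 for Cdh5, 0.82 for Nfatc1 and 0.34 for Kdr. Cdh5 was well above background on only 5 arrays, so its part in the means rests partly on unmeasured levels. Summed marker signal was 0.904 to 4.24 times the 75th percentile in GFP-high samples and 1.35 to 4.65 times in GFP-low samples. Pecam1, Tek, Tie1, Emcn and Eng were well above background on fewer than 4 arrays. Of 8 leukocyte markers Cd68, Lyz2 and Lyz1 were tested, with means of 1.50, 1.78, 1.21 and 1.06 in GFP-high samples, against 0.44, 0.46, 0.26 and -0.57 in GFP-low samples. The groups did not overlap in these means, and among all tested probes taken singly 8.62% had groups that did not overlap. The median difference of the 3 markers was 1.32, none passed the adjusted test in limma, and the median r with the globin profile was -0.0043. Ptprc, Csf1r, Cd52, Fcer1g and Tyrobp were well above background on fewer than 4 arrays. The summed leukocyte signal was 12.8 to 17.6 times the 75th percentile in GFP-high samples and 4.59 to 6.38 times in GFP-low samples. Of 6 platelet and megakaryocyte markers Itga2b and Gp1bb were tested, with means of -0.82, -1.50, -2.30 and -1.43 in GFP-high samples, against -2.63, -2.04, -3.61 and -1.99 in GFP-low samples. The groups overlapped, the median difference was 1.05 and neither passed the adjusted test. Of the epicardial list 4 of 5 markers were tested and of the mesenchymal list 4 of 6, and none passed. The part of the levels of these other cell types in the globin values was not tested.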

How the data were processed

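The data are 8 one-colour Agilent arrays of amplified RNA, 4 GFP-high and 4 GFP-low. The deposited files hold spot intensity values on a linear scale, which per the file headers and the submitters' processing notes were read with Agilent Feature Extraction 10.5.1.1, background-subtracted and flagged by that software before the authors deposited them. The series value table held the same intensity as the scanner files in all 45018 spots of each array and served only as an alternative. Each array had 43379 non-control spots, and 15735 to 22003 of them were well above background; the number of arrays limits the precision.

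Values are log2 of the processed signal minus the 75th percentile over non-control spots. Outlier spots, by the software's flag, were dropped, and replicate spots of a probe were replaced by their mean. A probe was tested if well above background on at least 4 of 8 arrays. GFP-high was compared with GFP-low in limma 3.58.1 (R 4.3.3; lmFit and eBayes, group as the only term, Benjamini-Hochberg over 18506 probes, adjusted p under 0.05), which was tested on simulated data. Promoter and probe sequences were searched with Python 3.11.15. Of the non-control probes, 25089 got a current symbol by accession and 16085 kept the files' name.

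The 9 genes and all lists were chosen with earlier results of these data known. The text names all probes of the 9 genes, the 3 largest and 3 smallest differences of the other erythroid list, the 10 gene names most alike to the embryonic globin profile, and Kcne1. That profile is the mean of the centred levels of Hba-x, Hbb-y and Hbb-bh1. The alternatives were other scalings, background corrections, filters and probe choices, slide and replicate blocks, each slide alone, and each array left out. Some members of the other erythroid list are counted but not reported by name here.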

Additional observations from a re-analysis of the deposited data

Results flagged for a closer look

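In 6 of 72 groups of 4 arrays examined, 1 sample stood far from the other 3 of its group, and in all 6 it was GFP-high 3. Chance flags about 1 in 20 groups, and the 6 share the same array, so they are not independent. Hemgn (A_51_P216049) had a log2 level of 1.064 there, above the other GFP-high samples. The globin share of the summed signal was 0.1343% on that array. The levels of 4632419I22Rik (2.958), Gpr177 (4.048) and Pkp2 (3.447), 3 of the genes most alike to the globin profile, were also high there. These genes were chosen for following that profile, which was itself highest on GFP-high 3, so their flags follow from the choice and add no separate evidence. Lmo2 was low there, at -1.430.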

How the results depend on the processing

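No probe of the 9 genes and no other erythroid gene passed an adjusted p of 0.05 in limma under any of 23 alternatives. The count of all probes that passed, 7 in the fit as reported, did change. It was 17 with quantile normalisation, 20 with normexp, 18 with normexp and quantile normalisation, 60 with a common floor, 4 with no filter, 14 with probes above background on all 8 arrays, 18 with 1 probe per gene name, 20 with the mean over probes of a gene name, 4 with slide as a block and 25 with trend and robust fitting. It was 0 with the replicate block, 0 within slide 1, 0 within slide 2 and, in an alternative chosen after seeing the data, 0 without the 3 globin-rich arrays. Leaving out each array gave 0 to 22, with 22 without GFP-high replicate 3. With the embryonic globin profile as a covariate, also chosen after seeing the data, it was 8.

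The median SD percentile of the member probes, 90.0, became 99.5 with normexp, 99.6 with normexp and quantile normalisation, 99.03 with a common floor and 98.8 among probes above background on all 8 arrays. Samples of the same number correlated at 0.119, 0.125, 0.287 and 0.0512 in their deviations from the group means, so 3 of 4 were over 0.1 and the numbers were not taken to pair the samples. All 4 GFP-high arrays, but 3 of 4 GFP-low arrays, correlated best with their own number. Both arrays of number 3 were globin-rich, while of number 1 only the GFP-low array was. With the replicate block the SE of Hbb-y was 0.57, against 0.92 in the fit as reported, and that of Hba-x 0.64, against 0.99. Their limma adjusted p with that block were 0.911 and 0.987. With the replicate block Hemgn had an unadjusted p of 0.00819 and a limma adjusted p of 0.198. Its probe was well above background in only 1 GFP-high sample, so these values rest on unmeasured levels.

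Small differences changed sign, and in 52 of 263 recomputed values the sign differed from the one reported. Hba-a1 became -0.0353 with the 75th percentile taken over probes above background on all arrays, -0.0571 with quantile normalisation, -0.16 with normexp, -0.13 with normexp and quantile normalisation and -0.69 within slide 1. Alas2 became -0.0856 with that percentile, -0.014 with normexp, -0.020 with normexp and quantile normalisation, -0.018 with the common floor and -0.16 within slide 2. Hbb-b1 A_51_P374468 became -0.0054 with normexp, -0.0082 with normexp and quantile normalisation, -0.0869 with the floor and -0.0253 within slide 1. Hbb-b1 A_52_P213909 became -0.0022 with normexp and quantile normalisation, -0.0504 with the floor and -1.54 within slide 1. Within slide 2, Hba-x became 0.91, Hbb-y 0.59, Hbb-bh1 1.23 and 1.07, and Hbb-b1 0.0811 (A_51_P374476) and 0.0314 (A_52_P260346). The cause was not tested.

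Leaving out 1 array gave -0.74 to 0.55 for Hba-x, -0.86 to 0.36 for Hbb-y, -0.92 to 0.36 and -1.10 to 0.21 for Hbb-bh1, -0.66 to 0.68 for Hba-a1, -0.58 to 0.76 for Alas2 and -1.69 to 0.52 for Slc4a1. For Hbb-b1 it gave -1.45 to -0.02 (A_51_P374476), -0.42 to 0.56 (A_51_P374468), -0.99 to 1.32 (A_52_P213909) and -1.85 to 0.13 (A_52_P260346). Hemgn kept its sign, at -5.53 to -3.37. Its lowest limma adjusted p, 0.0519, came without GFP-high replicate 3, the only GFP-high sample in which it was well above background. The Hemgn difference was smaller with normexp (-1.34), normexp and quantile normalisation (-1.58) and the common floor (-1.41), where its unadjusted limma p was 0.159. With 4 arrays a group, differences near the SE of the globin probes could not be detected.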
